A study of Danio rerio with 4 samples.

Results

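The genes described here encode the myosin II motors and the proteins that assemble, switch and restrain them on actin filaments: myosin heavy and light chains, myosin light chain kinases, tropomyosins, troponins, calponins, caldesmon, leiomodins, smoothelins and alpha-actinins. They were taken by symbol, as every gene ID in the count table whose name begins with one of these families' stems (myh or myl and a digit, mylk, tnnc, tnni or tnnt, tpm1 to tpm4, cnn1 to cnn3, cald1, lmod, smtn, and actn1 to actn4). No expression value entered this rule, although it was set with earlier results of these data known. This gave 85 of the 32105 Ensembl gene IDs in the table. One of them, TNNI3K, shares its first letters with the troponins but encodes a kinase, so 84 IDs belong to the contractile families.

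All RNA came from 1 group: adult zebrafish of wildtype genotype with a pdgfr beta egfp transgene, whose EGFP-positive brain cells were sorted after dissociation with Liberase. There were 4 libraries, each a pool of 6 brains, made from amplified RNA. The series' design mentions triplicates, and the 4 columns of the table carry no sample number, so they are called B1 to B4. Titles and source names call the cells pericytes, mural cells of capillaries, while a cell type tag reads muLEC, the mural lymphatic endothelial cells of the meninges. No unsorted tissue or second cell type was included, so levels could be set against other genes of the same libraries only. The labels do not say that the pools came from separate days or batches. The p-values weigh each gene's distance from a common level against the spread between these 4 libraries. That spread is estimated with information shared between all genes, and it may be partly technical.

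Library totals lay between 33270774 and 40441253 counts, and 3 counts corresponded to between 0.0751 and 0.0879 CPM (counts scaled to the library total times its TMM factor), a floor for counting error only. PDGFRB, the pericyte receptor gene after which the reporter is named, had 219, 76.0, 121 and 46.1 CPM in B1 to B4. Of the pericyte marker IDs that could be tested, 10 of 15 lay above the level of the median tested gene (12.6 CPM, here called the reference level) and 2 below it; of 9 tested lymphatic and muLEC marker IDs, 4 lay above and 3 below. Of all tested genes 36.8% lay above and 33.2% below, and the lymphatic counts are near these shares. PDGFRB itself is among the 10 pericyte IDs above. Some lists of other cells had at least as large a share above: 9 of 12 tested radial glia, 9 of 13 fibroblast and 8 of 10 oligodendrocyte IDs. The share was smaller for neuron (6 of 13), microglia and macrophage (3 of 10), erythrocyte (1 of 4) and endothelial IDs (1 of 11). Transcripts known as markers of other cells were also found, and which cells they came from was not tested. Radial glia markers summed to between 26530 and 51850 CPM and fibroblast markers to between 1048 and 5457 CPM. The pericyte markers summed to between 848 and 2195 CPM. Levels given here are those of all sorted cells together. Neuron markers summed to 1247 CPM in B1 against 197 to 321 CPM in B2 to B4. Oligodendrocyte markers summed to between 1407 and 4061 CPM, microglia and macrophage markers to between 1286 and 3291 CPM, and erythrocyte markers to between 171 and 563 CPM. Single genes gave most of the microglia and erythrocyte sums: apoeb had 934 to 2620 CPM, and cahz 166 to 534 CPM. In bulk RNA of this kind, fewer cells of a type and less RNA per cell cannot be told apart.

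In a contractile cell, calcium-bound calmodulin activates myosin light chain kinase, which phosphorylates the regulatory light chain and so lets the myosin heavy chain pull on actin. Smooth muscle and non-muscle cells use this switch, and caldesmon, calponin and smoothelin act on their thin filaments. Striated muscle relies instead on troponin, a calcium sensor that shifts the position of tropomyosin on the actin filament. In the vessel wall MYH11, CNN1, LMOD1 and SMTN are known as markers of smooth muscle, whereas MYH9, MYH10, MYL6, MYL12 and most tropomyosins are found in nearly every cell. The IDs were sorted by these roles into 15 smooth muscle, 15 non-muscle, 50 striated and 4 shared IDs (tpm1, TPM2 and the smoothelin-like genes, found in smooth and striated muscle).

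Transcripts of the non-muscle machinery were well represented, and those of the striated one were sparse. The IDs classed as smooth muscle were split, with 5 of 11 tested above the reference level and 4 below, near the shares over all tested genes. Some genes of that class, MYLK among them, also serve non-muscle cells. Of the 85 IDs, 39 reached 1 CPM in at least 2 libraries and were tested, which is 45.9% of them against 53.8% of all IDs in the table. These were 15 of 15 non-muscle, 11 of 15 smooth muscle, 3 of 4 shared and 10 of 50 striated IDs. By edgeR's quasi-likelihood test with Benjamini-Hochberg adjustment over all 17283 tested genes, 19 of the 39 lay above the reference level and 12 below it, where 36.8% of all tested genes lay above and 33.2% below. The median level over all 85 IDs, tested or not, was 0.635 CPM, against 1.62 CPM over all IDs in the table. Transcript lengths were not used here, so a long transcript collects more reads at the same number of molecules. Levels of different genes are therefore not ranked against each other, and each is read against the reference level and across libraries. The reference level is a median over other genes without length correction, so a call above or below it also depends on transcript length.

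**Figure D1:**
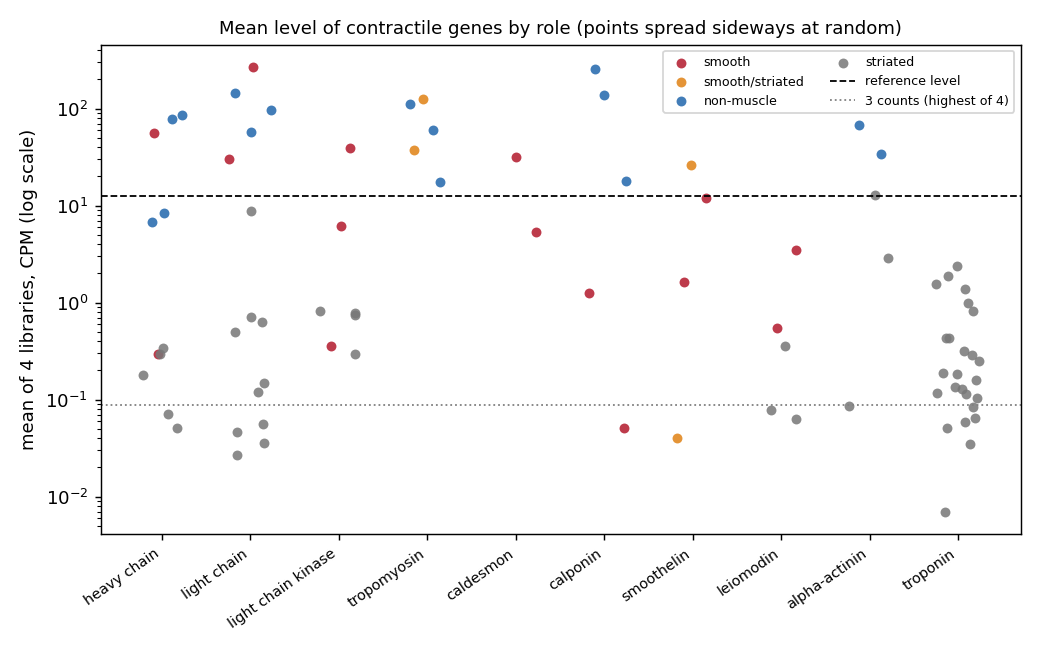
Mean CPM over the 4 libraries (log scale) for the 84 contractile IDs by role, coloured by class; the dashed line is the reference level of 12.6 CPM and the dotted line the highest of the 4 floors, 0.0879 CPM. Sideways position within a role is random. Apart from actn3b at 12.96 CPM, striated IDs lie below the reference level in every role, while non-muscle IDs lie between 6.78 and 254 CPM.

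Among heavy chains, the motor subunits, transcripts of the smooth muscle form and of the non-muscle forms were found together. MYH11 (ENSDARG00000009782), the smooth muscle myosin heavy chain, had 98.3, 44.1, 51.8 and 32.3 CPM in B1 to B4, above the reference level in every library. Its fitted level was 2.16 ± 0.30 log2 units (SE) above the reference (edgeR adjusted p = 0.000254). The other ID of that symbol (ENSDARG00000100972) had 25 and 17 counts in B1 and B2 and 0 in B3 and B4, which allows up to 0.0838 and 0.0751 CPM there. MYH10, one of the widely expressed non-muscle heavy chains, had 165, 69.1, 47.9 and 62.5 CPM, and MYH9 (ENSDARG00000001014), another, had 176, 46.4, 42.3 and 46.9 CPM. Both lay above the reference level, at 2.77 ± 0.34 and 2.62 ± 0.41 log2 units. B1 stood apart from the other 3 libraries in both genes, and without B1 the mean of this MYH9 ID was 45.2 CPM in place of 77.8 CPM. Where a symbol has several IDs, the counting could split reads between near-identical copies, so such pairs are uncertain. The second MYH9 ID (ENSDARG00000063295) had 14, 4.85, 4.94 and 3.30 CPM and did not pass, with a level of -0.90 log2 units. Without B1 its mean was 4.36 CPM and its level passed as low, at -1.53 log2 units. The third non-muscle heavy chain gene, myh14, averaged 8.48 ± 1.97 CPM (SD over the 4 libraries, as in all later means) and passed as low only without B1 (-0.71 log2 units) among the libraries left out in turn.

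Light chains, the small subunits bound to the myosin neck, were above the reference level for all 5 smooth and non-muscle IDs. MYL9 (ENSDARG00000008030), the regulatory light chain of smooth muscle, had 212, 327, 258 and 278 CPM in B1 to B4, within a 1.55-fold range. Its level was 4.41 ± 0.22 log2 units above the reference (edgeR adjusted p = 3.09e-07). The second MYL9 ID (ENSDARG00000038123) had 12.04, 45.4, 29.5 and 34.3 CPM, so B1 was the only library under the reference level. It passed at 1.26 ± 0.32 log2 units (edgeR adjusted p = 0.00603) and did not pass without B2, at 0.92 log2 units. The non-muscle regulatory light chain genes myl12.1 and MYL12A had 70.4, 189, 141 and 178 CPM, and 21.1, 79.6, 65.9 and 64.3 CPM. The essential light chain gene myl6 had 33.8, 176, 95.8 and 76.5 CPM. In each of these genes B1 was the lowest library and B2 the highest.

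Of the kinases that phosphorylate these light chains, MYLK (ENSDARG00000034801), the smooth muscle and non-muscle form, had 40.2, 36.8, 52.5 and 28.4 CPM. All 4 values lay above the reference level, and the fitted level was 1.64 ± 0.22 log2 units above it (edgeR adjusted p = 0.000326). The other MYLK ID (ENSDARG00000004753) averaged 0.358 CPM and was not tested. A related gene, mylk5, had 11.1, 5.25, 3.97 and 4.43 CPM and lay below the reference level (-1.03 ± 0.32 log2 units, edgeR adjusted p = 0.0378). That call did not hold without B2, B3 or B4, at -1.04, -0.96 and -0.99 log2 units. Striated muscle kinases were scarce: mylk2, MYLK3 and the 2 MYLK4 IDs averaged between 0.297 and 0.8289 CPM.

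Tropomyosins, the coiled-coil proteins that lie along actin, were present throughout. The gene tpm1, used in smooth and striated muscle and in other cells, had 65.4, 164, 171 and 99.3 CPM in B1 to B4, and TPM2, known from muscle, had 29.1, 48.3, 39.6 and 32.4 CPM. The widely expressed tpm3 had 76.7, 141, 116 and 112 CPM. All 3 lay above the reference level, at 3.31 ± 0.29, 1.56 ± 0.22 and 3.14 ± 0.23 log2 units. The 2 copies of TPM4, a form of non-muscle cells, differed in their calls: tpm4a had 50.2, 86.2, 48.7 and 52.7 CPM and passed as high (2.23 ± 0.23 log2 units). The ID named TPM4 had 6.80, 28.7, 18.2 and 16.3 CPM and did not pass (0.47 ± 0.33 log2 units, edgeR adjusted p = 0.22), with B1 again the lowest. Without B1 it passed, at 0.74 log2 units.

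The calponins divided by type. CNN3 (ENSDARG00000099510), the acidic calponin of non-muscle cells, had 224, 246, 281 and 264 CPM, and CNN2, a calponin of smooth muscle and non-muscle cells, had 141, 173, 111 and 123 CPM. Their libraries ranged over at most 1.56-fold, and both lay above the reference level (4.33 ± 0.20 and 3.44 ± 0.22 log2 units). CNN1 (ENSDARG00000102398), the calponin of differentiated smooth muscle, averaged 1.24 ± 0.424 CPM and lay below it, at -3.35 ± 0.33 log2 units (edgeR adjusted p = 0.000864). The other CNN1 ID (ENSDARG00000017193) had 6 counts in B1, 1 in B2 and 0 in B3 and B4. The second CNN3 ID (ENSDARG00000029856) averaged 17.97 ± 4.40 CPM and did not pass by edgeR. It did pass without B1, at 0.63 log2 units, and by limma-voom over all libraries, at 0.62 log2 units.

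Other smooth muscle regulators of the thin filament were split as well. The caldesmon gene cald1a, whose protein holds back myosin on actin, had 15.3, 48.0, 35.2 and 29.3 CPM and lay above the reference level (1.34 ± 0.29 log2 units, edgeR adjusted p = 0.00316). Its copy cald1b had 0.381, 17.2, 2.23 and 1.33 CPM and was highest in B2. It did not pass over the 4 libraries by edgeR (-1.26 ± 0.79 log2 units). Without B2 its mean was 1.31 CPM and its level passed as low, at -3.35 log2 units. Smoothelin, a marker of contractile smooth muscle, was represented by smtnb at 13.2, 7.12, 14.7 and 12.8 CPM, which did not pass in either direction, and by smtna at 1.62 ± 0.895 CPM, below the reference level. The leiomodin gene LMOD1 (ENSDARG00000077261), an actin-filament nucleator of smooth muscle, lay below it at 3.52 ± 2.09 CPM (-1.84 ± 0.39 log2 units, edgeR adjusted p = 0.0118), and its second ID averaged 0.55 CPM. SMTNL2, a smoothelin-like gene, had 42.0, 28.4, 21.2 and 13.6 CPM and passed as high at 1.06 ± 0.30 log2 units, but not without B2, at 0.94 log2 units.

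Of the 11 tested smooth muscle IDs, 5 were thus above the reference level (both MYL9 IDs, MYH11, MYLK and cald1a), 4 below it (LMOD1, CNN1, smtna and mylk5) and 2 on neither side. These counts are near the shares over all tested genes, 36.8% above and 33.2% below. Without B3 the number below was 2: CNN1 no longer passed the filter and mylk5 no longer passed the test. By limma-voom with all 4 libraries the number below was 5. The split depends on how the IDs were classed. By the roles given above, MYLK and caldesmon also act in non-muscle cells, and CNN2, found in both, was classed as non-muscle. Of the smooth muscle markers named above, only MYH11 had an ID above the reference level. CNN1, LMOD1 and smtna lay below it and smtnb on neither side. Of the 15 non-muscle IDs 11 were above and 0 below by edgeR, also 0 below at an unadjusted p under 0.05; DESeq2 placed 2 below and limma-voom 1. Without B1 there were 2, the second MYH9 ID and myh14.

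Alpha-actinins, which cross-link actin filaments, differed by form. ACTN1, a non-muscle form, had 71.0, 72.2, 71.5 and 56.2 CPM, and actn4, the other, averaged 34.03 ± 8.72 CPM; both were above the reference level. The striated muscle form actn2b had 2.14, 3.41, 3.83 and 2.10 CPM and was below it (-2.14 ± 0.29 log2 units). The Z-disc form actn3b had 39.0 CPM in B1 and 2.79, 7.68 and 2.35 CPM in B2 to B4. Its level over 4 libraries was 0.04 ± 0.68 log2 units and did not pass; without B1 its mean was 4.28 CPM in place of 12.96 CPM and it passed as low, at -1.56 log2 units.

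**Figure D2:**
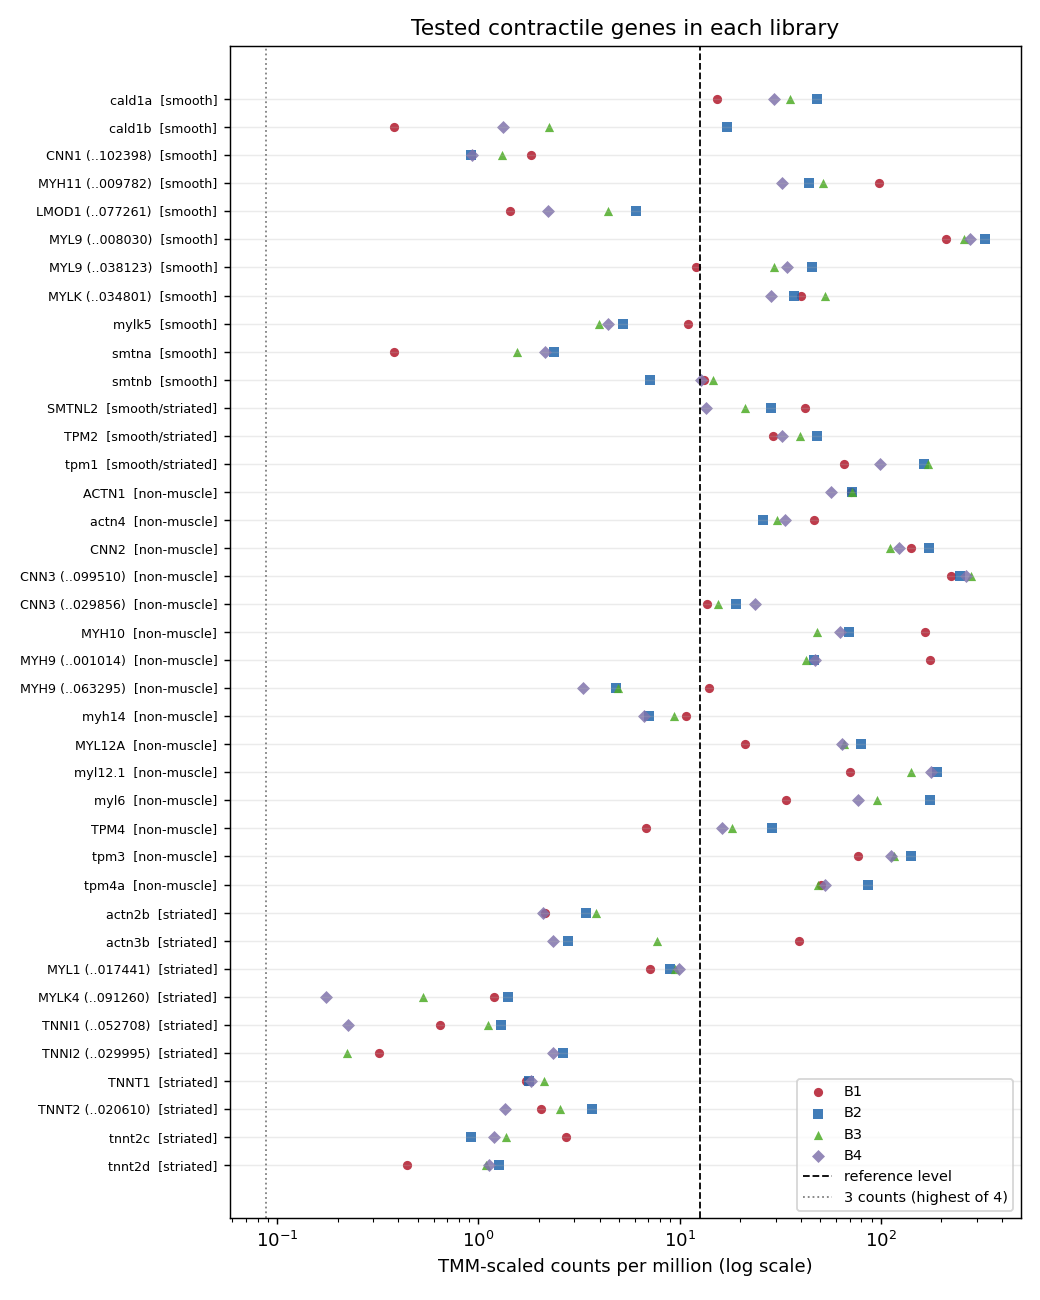
TMM-scaled CPM (log scale) of the 39 tested IDs in each library, grouped by class, with the last 6 digits of the ID where a symbol has several; the dashed line is the reference level, the dotted line the highest of the 4 floors. The striated IDs lie left of the reference level in every library, apart from actn3b in B1 at 39.0 CPM, while most non-muscle IDs lie to its right.

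Striated muscle genes had few reads. The 25 troponin IDs together had 379, 585, 426 and 392 counts in B1 to B4, a summed level of 12.2 ± 2.60 CPM. Of these, 6 could be tested and all 6 were below the reference level, where 33.2% of all tested genes were. TNNT2 (ENSDARG00000020610), the tropomyosin-binding troponin of heart, had 2.05, 3.68, 2.54 and 1.35 CPM, and TNNT1, its slow-muscle counterpart, had 1.73, 1.79, 2.12 and 1.83 CPM. TNNI2 (ENSDARG00000029995), an inhibitory troponin subunit of fast muscle, had 0.322, 2.63, 0.223 and 2.35 CPM, so that B2 and B4 stood apart from B1 and B3. Among the further copies of the tropomyosin-binding subunit, tnnt2c had 2.73, 0.921, 1.37 and 1.201 CPM and was highest in B1, whereas tnnt2d had 0.439, 1.27, 1.09 and 1.13 CPM and was lowest there. The 5 striated heavy chain IDs (MYH6, myh6, MYH7, myh7ba and myh7bb) summed to 71 and 57 counts in B1 and B2 and to 2 counts each in B3 and B4, and 0 of them could be tested. Among striated light chains MYL1 (ENSDARG00000017441), a fast-muscle form, was the only ID tested: it had 7.15, 8.94, 9.50 and 9.89 CPM and did not pass. In all, 0 of 10 tested striated IDs were above the reference level by edgeR, DESeq2 or limma-voom (0 also at an unadjusted p under 0.05), and 8 were below it. Without B2, 5 were below, because MYLK4, TNNI2 and TNNI1 no longer reached the filter. The highest value of an untested striated ID in any library was 1.201 CPM.

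Genes that act with these families were counted in the same way. Of 13 tested smooth muscle partner genes, 5 were above and 4 below, near the shares of 36.8% and 33.2% over all tested genes. Above were the actin cross-linker flna at 140 ± 95.8, TAGLN (ENSDARG00000033466) at 109 ± 58.2, ITGA8 at 74.0 ± 53.4, acta2 at 58.9 ± 35.7 and a vinculin ID (ENSDARG00000098695) at 48.4 ± 52.8 CPM. This vinculin ID had 127 CPM in B1 and 18.5, 29.0 and 18.9 CPM in B2 to B4. ITGA8 had 154 CPM in B4 against 45.1 to 50.1 CPM in B1 to B3. The other vinculin ID (ENSDARG00000044968), at 19.9 ± 8.49 CPM, and the other TAGLN ID (ENSDARG00000045408), at 13.3 ± 8.90 CPM, passed on neither side. By library, flna had 283, 103, 81.4 and 92.0 CPM in B1 to B4, while acta2, the smooth muscle actin gene, had 29.9, 110, 54.1 and 41.2 CPM. TAGLN had 40.5, 183, 110 and 102 CPM, so that B1 was the highest library for flna and the lowest for acta2 and TAGLN. Genes of SRF and its coactivators, which drive contractile gene transcription, were above in 1 of 7 tested IDs, mrtfab at 27.1 ± 11.5 CPM, and below in 2. The coactivator gene myocd matched no ID by symbol and was not counted. The same held for 9 of the 23 smooth muscle partner entries. Of 44 IDs of further striated muscle genes 13 could be tested, with 10 below and 1 above. That 1 was an ACTA1 ID (ENSDARG00000036371) at 37.0 ± 2.89 CPM, a skeletal muscle actin whose reads can be shared with near-identical actin genes.

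The balance of heavy and light chains differed between the libraries, a pattern singled out after the values were seen. Every one of the 5 tested smooth and non-muscle heavy chain IDs was highest in B1, and each of the 5 light chain IDs was lowest there. Over all tested genes, 36.0% were highest in B1 and 43.7% lowest. On the log2 scale, B1 over the mean of B2 to B4 was between 0.48 and 1.96 for these heavy chains and between -1.78 and -0.44 for the light chains, with a median of -0.18 over all tested genes. The heavy chain IDs summed to 464, 172, 156 and 152 CPM in B1 to B4 and the light chain IDs to 349, 817, 591 and 631 CPM. The ratio of these sums was 1.33 in B1 and between 0.21 and 0.265 in the other 3 libraries, and its size depends on transcript length. Whether longer and shorter transcripts differed in B1 across all genes was not tested, because lengths were not available. The counts of 5 and 5 were the same with DESeq2 size factors, with no scaling factor and with YuGene scores, the authors' own within-library values. In YuGene units, MYH9 (ENSDARG00000001014) had 0.892, 0.682, 0.676 and 0.698, and myl6 had 0.588, 0.904, 0.84 and 0.799.

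**Figure D3:**
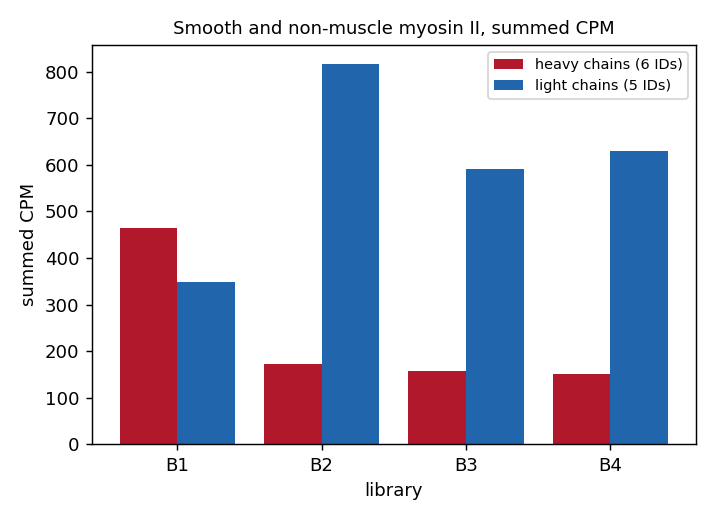
Summed CPM of the 6 smooth and non-muscle heavy chain IDs and the 5 smooth and non-muscle light chain IDs in each library. In B1 the heavy chain sum, 464 CPM, exceeds the light chain sum of 349 CPM, whereas in B2 to B4 it is the lower of the pair.

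In the other roles, both caldesmon IDs were lowest in B1, as were 4 of 5 tropomyosin IDs (5 of 5 by YuGene), and 2 of 4 tested calponin IDs. Of 4 tested alpha-actinin IDs, 0 were lowest in B1 and 2 were highest there (3 with DESeq2 size factors). Of 3 tested light chain kinase IDs, 0 were lowest in B1 and 1 was highest there (2 by YuGene). B2 was the highest library for 20 of the 39 tested IDs and B1 for 11 (28.2%, against 36.0% of all tested genes). The share of all tested genes highest in B2 was not computed. B1 was the lowest library for 18 of the 39 (46.2%), near the 43.7% of all tested genes. Marker lists of other cells also differed in B1. Neuron markers summed to 1247 CPM there against at most 321 CPM in B2 to B4, with 13 of 13 tested IDs highest in B1. Radial glia markers summed to 26530 CPM in B1 against at least 46600 CPM, with 10 of 12 tested IDs lowest in B1. Endothelial markers summed to 337 CPM in B1 against at most 94.8 CPM, but a single CLDN5 ID (ENSDARG00000043716) gave 240 CPM of this, and 4 of 11 tested IDs were highest in B1. Pericyte markers summed to 2195 CPM against at most 1464 CPM, of which KCNE4 gave 955 CPM in B1. Of the 15 tested pericyte IDs, 6 were highest and 8 lowest in B1, and their median log2 difference between B1 and the mean of B2 to B4 was -0.67. Their part in the heavy and light chain levels was not tested.

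**Figure D4:**
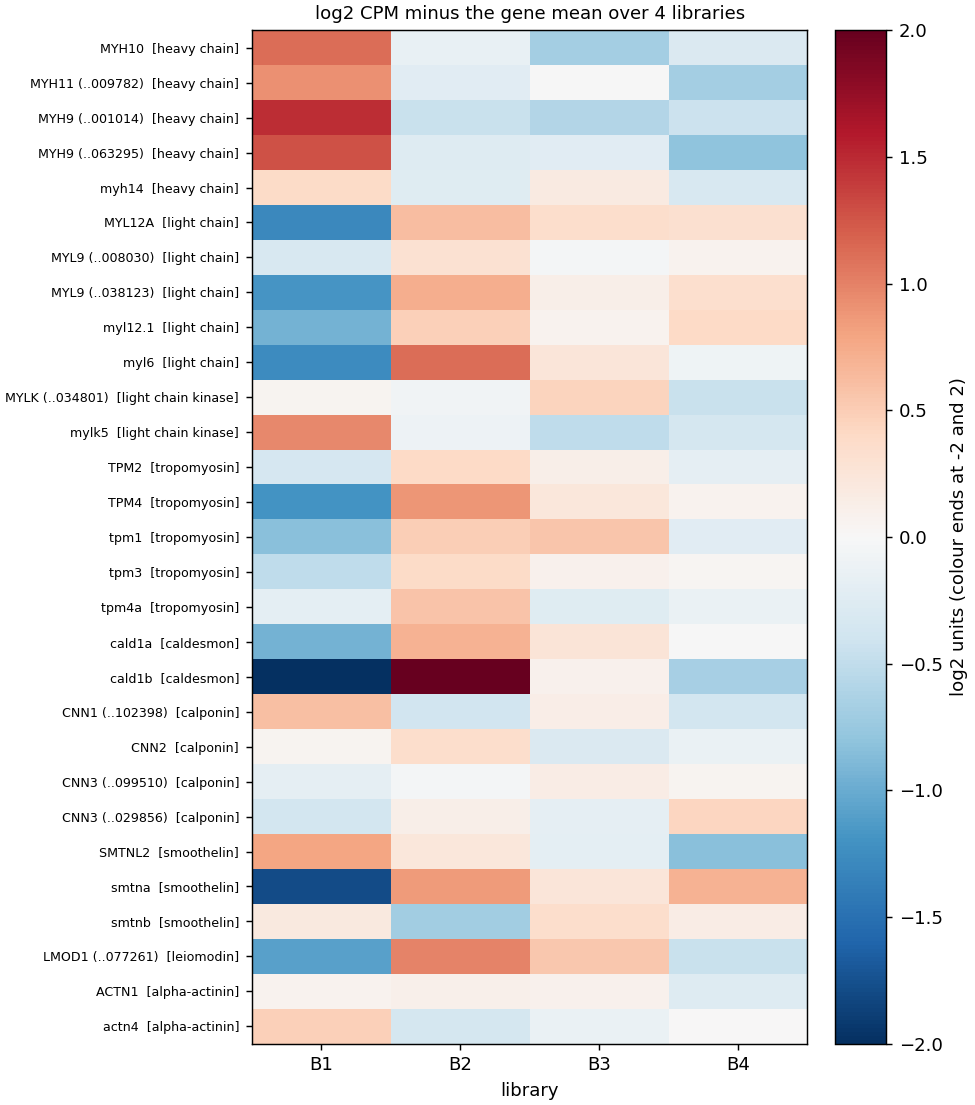
Each cell shows a tested smooth muscle, shared or non-muscle ID's log2 CPM minus its mean over the 4 libraries, from blue (lower) to red (higher); columns are libraries and rows are ordered by role. The heavy chain rows are red in B1 and the light chain rows blue, and cald1b, whose B1 and B2 cells lie at the ends of the colour scale, spans the widest range.

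Set against PDGFRB within each library, MYH11 had the smallest spread of the 39 tested IDs, closely followed by the second MYH9 ID (ENSDARG00000063295) with an SD of 0.36. The log2 ratio of MYH11 to PDGFRB counts was -1.16, -0.78, -1.22 and -0.51 in B1 to B4, an SD of 0.33 (n = 4), where the median SD was 1.04 over the tested contractile IDs and 1.14 over all tested genes. An SD of that size or smaller was found for 0.648% of the 17282 tested genes other than PDGFRB, MYH11 itself counted. That share is no test, because MYH11 was picked as the smallest of the 39 in these same data. The next in order were SMTNL2 with an SD of 0.52, CNN1 (ENSDARG00000102398) with 0.55 and tnnt2c with 0.57, so small spreads were found in smooth, non-muscle, shared and striated IDs. For MYL9 (ENSDARG00000008030) the same ratio was -0.05, 2.11, 1.09 and 2.59, with an SD of 1.17, and for cald1a it was -3.84, -0.66, -1.78 and -0.65, with an SD of 1.5. B1, where PDGFRB was highest, gave the lowest ratio for both of these genes, as it did for most of the 39 tested IDs. No test was made, since an exact sign-flip test over 4 libraries cannot reach the 0.05 threshold, and the level of each ratio depends on the lengths of both transcripts.

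The spread between libraries was close to that of other genes by an estimate that edgeR draws towards the trend over all genes. Part of this closeness is therefore built in. Among the 23 tested IDs with a mean of at least 10 CPM, the median edgeR tagwise biological coefficient of variation was 0.477, against 0.447 over the 9676 tested genes of that level. It reached 1 in 0 of the 23, where 0.889% of those genes did, and 23 IDs are too few to show a difference from that share. The highest was 0.903, for actn3b. With means down to 5 CPM, cald1b was added at 1.03.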

How the data were processed

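Per the labels' protocols, EGFP-positive cells were sorted from pools of 6 adult zebrafish brains and their RNA amplified. The submitters' processing notes name bcl2fastq, R 3.2.2 and the build GRCz10; which aligner, counter and gene models were used is not given in the sources used here. Raw counts, whole numbers for each Ensembl ID, were deposited by the authors together with YuGene values, a deposited score between 0 and 1 set within each library that rises with the count. Without molecular identifiers, floors cover counting error only. Column names gave the group but not which sample, so columns served as replicates without numbers, and 0 were left out.

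A names table gave symbols, many in human style, for 26269 of 32105 IDs; 17 symbols among the members belong to several IDs (38 IDs in all), whose reads the counting could split if near-identical. The gene lists, classes and members were chosen with earlier results of these data known. One of the lists is not reported here. The gene mylk5 was put with smooth muscle by its name only.

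Counts were scaled by TMM in edgeR 4.0.16 (R 4.3.3). Genes reaching 1 CPM in 2 or more libraries were fitted with 1 mean each by edgeR's quasi-likelihood method. A two-sided test set each level against the median fitted one (Benjamini-Hochberg, 0.05), with F computed from the drop in deviance; the procedure was tested on simulated data. Ratios to PDGFRB used counts plus 2. Alternatives were DESeq2 1.42.0 size factors and Wald test, limma 3.58.1 voom, no filter, and leaving out each library; YuGene and unscaled CPM were added for the library order, and leaving out libraries for the PDGFRB ratio, after the data were seen. Per library, values were printed for the 8 tested IDs of highest mean in each class, the 6 of highest variation at 10 CPM or more, and those with 1 library far from the others. From the lists, up to 4 IDs of highest mean were given. The vinculin IDs and the other TAGLN and SRF IDs were added, chosen after their values were seen. No other member was given per library, apart from counts of untested IDs.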

Additional observations from a re-analysis of the deposited data

Results flagged for a closer look

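In 6 of the 39 tested IDs (15.4%), 1 library lay far from the other 3 by Dixon's criterion, against 16.6% of all tested genes. Chance flags about 1 in 20 groups of 4 normally distributed values. CPM need not be so distributed, so the share of all tested genes is the one to compare with. In B1, MYH9 (ENSDARG00000001014) had 176 CPM, the second MYH9 ID (ENSDARG00000063295) had 14 CPM and actn3b had 39.0 CPM, each the highest value. In B2, tpm4a had 86.2 CPM and cald1b had 17.2 CPM, again the highest. In B4, ACTN1 had 56.2 CPM, the lowest. Without B2 the mean of tpm4a was 50.5 CPM.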

How the results depend on the processing

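The edgeR count of members above the reference level was 19 (17 to 21 with a library left out) and that below was 12 (9 to 13). With each library left out, the smooth muscle IDs above numbered 4 to 5 and below 2 to 4, the non-muscle IDs above 11 to 13 and below 0 to 2, the striated IDs above 0 and below 5 to 8, and the shared IDs above 2 to 3 and below 0. With DESeq2 size factors 39 of 39 tested IDs kept their side and their call. By the DESeq2 Wald test 37 did, with 2 non-muscle IDs below, and by limma-voom 36 did, with 1. Without the filter the reference level fell to 3.14 CPM because low genes entered: 50 members were below, of them 43 striated and 1 shared, and 2 striated IDs were above. There myh14 (1.44 log2 units), the second MYH9 ID (1.11), LMOD1 (0.17), mylk5 (0.98), smtnb (1.93) and MYL1 (1.5) turned positive. With each library left out in turn actn3b lay between -1.56 log2 units (without B1) and 0.30 (without B4). With a minimum mean of 5 CPM, 1 member had a coefficient of variation of at least 1, against 0. No paired analysis was possible because there is a single group. The planned levels per coding kilobase were not run, for want of transcript or protein lengths. At these depths an ID with 0 counts may have up to 0.0751 to 0.0879 CPM.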

Other observations

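TNNI3K, the kinase whose name begins like the troponins', had 13 counts in B1 and 0 in B2, B3 and B4. The leiomodin ID LMOD2 (ENSDARG00000045864) had 41 counts in B1 and 0 in B2, with 5 and 4 in B3 and B4. Among the striated muscle genes outside these families, mb had 118 CPM in B2 and 2.96, 0.642 and 1.58 CPM in B1, B3 and B4, and did not pass the edgeR test (adjusted p = 0.265). SRF (ENSDARG00000053918), one of the IDs of the transcription factor that drives contractile genes, averaged 9.30 ± 5.40 CPM and did not pass. It had 17.3 CPM in B1 and 6.04, 5.87 and 8.03 CPM in B2 to B4. The other SRF ID (ENSDARG00000102867) had 24.0 CPM in B1 and 1.87, 1.17 and 2.35 CPM in B2 to B4, and did not pass either.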
